A study of Amorphotheca resinae with 20 samples.

Results

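The response of the filamentous fungus Amorphotheca resinae ZN1 to 5-hydroxymethylfurfural (HMF) was examined by comparing the 2 HMF libraries with the 2 libraries of the furan control, which are 4 of the 20 RNA-seq libraries of the series. All were made from wild-type mycelia of strain ZN1, grown at 28 °C on potato-dextrose medium and collected at 4 h. The HMF group had 1.0 g/L HMF in the medium, which is 7.93 mmol/L, and its libraries carry the replicate numbers 3 and 4. The control group, with replicates 1 and 2, is labelled as the control for furans. The same table held 2 furfural libraries, at 1.0 g/L or 10.4 mmol/L, which entered the fit and served as a direct comparison. The remaining 14 libraries, from the same strain, medium and time, came from 2 further experiments with their own 2-library controls. One held vanillin, 4-hydroxybenzaldehyde and syringaldehyde at 0.1 g/L each, and the other acetic acid at 2.0 g/L and formic acid at 4.0 g/L. Nothing in the labels says that the duplicates were grown separately. The spread that the p-values rest on is that between these libraries and may be technical. No transcript in the tables marks exposure to HMF, so the group label could not be checked against the counts.

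HMF is a furan aldehyde that forms when hexose sugars lose water during the hot or acid pretreatment of plant biomass, and furfural forms in the same way from pentoses. The 2 molecules share a furan ring with an aldehyde, and HMF has a hydroxymethyl group on the ring in addition. The aldehyde group makes both compounds toxic to microbes, and many yeasts and filamentous fungi convert them to less toxic alcohols by reduction or to acids by oxidation. A. resinae is known for growing on fuels and creosote, and strain ZN1 is used to remove such inhibitors from pretreated biomass before fermentation.

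The deposited counts covered 18830 identifiers of the form ARZ_number_T1, and the tables pair none of them with a gene name, a product or a position. None of them matched the reference table of another A. resinae strain (0 of 18830 against 9642 genes), so genes are given by identifier and no sequence is shown. The 4 libraries held 13097870 to 14107831 counts, and in each of them the 10 most abundant identifiers took 3.81% to 4.35% of the counts. Spearman's rho across genes was 0.989 between the HMF libraries and 0.991 between the control libraries. The log2 difference between the HMF libraries had a standard deviation across genes of 0.291, against 0.257 for the control libraries and 0.215 for the furfural libraries, over the 11322 genes with at least 10 CPM, the count scaled to a common library total, in HMF or control.

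HMF moved a small set of genes far and left most genes within 2-fold of the control. Of 16398 genes tested, 1385 (8.45%) passed an adjusted p of 0.05 in edgeR's quasi-likelihood test, with 820 higher (5.0%) and 565 lower (3.45%) with HMF. The median log2 fold change was 0.65 among the higher genes and −0.66 among the lower genes, against 0.00 over all genes tested. Among the called genes, 163 rose and 104 fell by 2-fold or more, and 23 and 8 of these passed 8-fold. Of the 11322 genes with at least 10 CPM, 10570 (93.4%) had a 95% interval of the fold change that lay within 2-fold either way. The interval lay wholly above 2-fold for 63 genes and wholly below it for 10. RNA came from whole mycelium, so fewer cells of a kind and less RNA per cell cannot be told apart. In all 1385 called genes both HMF libraries lay on the same side of both control libraries, which was also true of 50.8% of all genes tested.

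The share of genes called rose with their level, and so with the reads behind them. When the genes tested were cut into 4 equal classes by mean CPM over the 6 furan libraries, 2.41% were called in the lowest class (0.365 to 6.38 CPM) and 15% in the highest (from 61.2 CPM). The balance of directions also differed by class. In the lowest class 36 called genes rose and 57 fell at least 2-fold, and in the highest class 53 called genes rose and 5 fell at least 2-fold. The mean behind the classes includes the treated libraries, so a rise moves a gene up and a fall moves it down. ARZ_7295_T1, for example, had 1.25 CPM in the control and 26.7 CPM over the 6 libraries, and ARZ_10440_T1 36.3 and 13.7 CPM. How far this shaped the difference in balance between the classes was not tested.

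**Figure D1:**
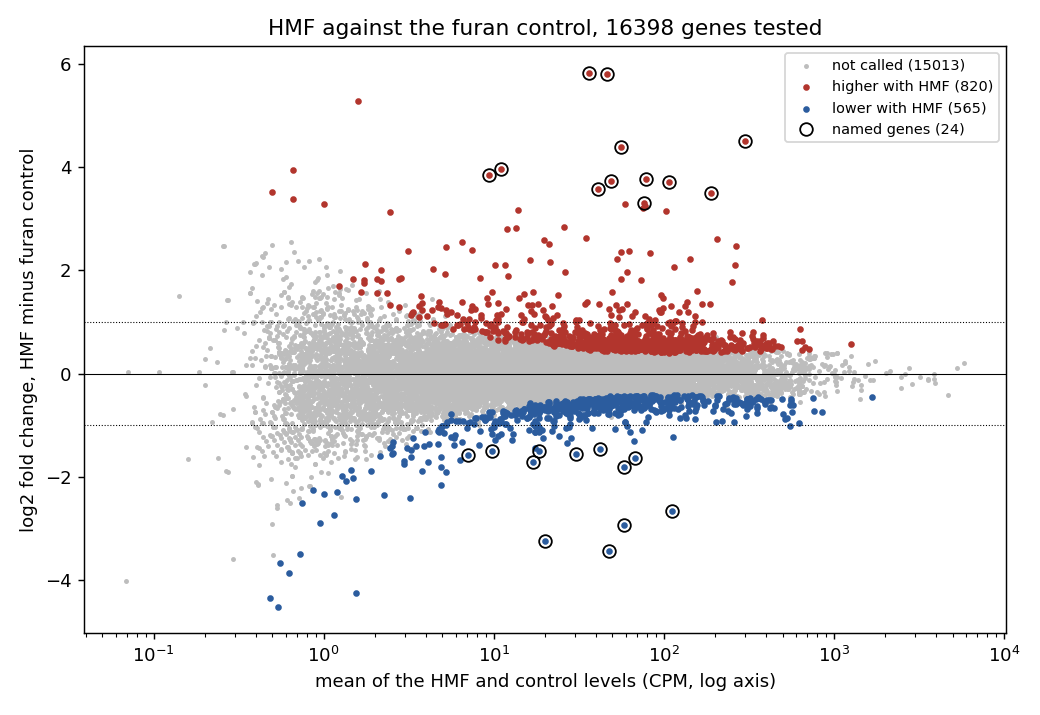
Log2 fold change of each of the 16398 genes tested (y axis, HMF minus furan control) against the mean of its HMF and control levels (x axis, CPM on a log axis); dotted lines mark 2-fold. The 820 higher and 565 lower genes are coloured, and circles mark the 24 named genes, of which the 12 rises lie between log2 3.30 and 5.83 and the 12 falls between −1.45 and −3.43.

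Named genes were ranked by size of change. They had to pass the test with a change of 2-fold or more, reach a mean of 10 CPM in the HMF or the control group, and show no overlap between the libraries of the groups. This left 118 rises and 47 falls, and the 12 largest of each are described. Together the 118 rises took 3303 and 3488 CPM in the control libraries and 11441 and 11617 CPM in the HMF libraries. The 47 falls together took 2679 and 2963 CPM in the control and 1089 and 1159 CPM with HMF. At the edge of the rule, the rise ranked 12 had a log2 fold change of 3.30 and the next 3.28, and the fall ranked 12 had −1.45 and the next −1.44.

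The 2 largest rises both started from about 1 to 2 CPM in the control. ARZ_7295_T1 was at 1.38 and 1.12 CPM in control replicates 1 and 2 and at 73.2 and 70.6 CPM in HMF replicates 3 and 4. ARZ_15626_T1 was at 2.27 and 0.898 CPM in the control and at 78.3 and 103 CPM with HMF. In both genes both HMF libraries stood above both furfural libraries, where ARZ_7295_T1 was at 8.96 and 5.13 CPM and ARZ_15626_T1 at 36.0 and 29.0 CPM. Against the control the log2 fold changes were 5.83 ± 0.26 (SE) and 5.81 ± 0.26, and edgeR's quasi-likelihood test gave them adjusted p-values of 2.99e-13 and 1.02e-12. For ARZ_15626_T1 the size depended on its uneven control libraries, at 6.65 without control replicate 1 and 5.31 without control replicate 2, against 5.99 and 5.69 for ARZ_7295_T1. The identifiers that follow them in number also rose from about 1 CPM. ARZ_7296_T1 went from 1.10 and 0.898 to 5.51 and 5.04 CPM, and ARZ_15627_T1 from 0.965 and 0.749 to 3.51 and 3.46 CPM. Their log2 fold changes were 2.38 ± 0.49 and 2.01 ± 0.46, and their adjusted p-values 0.00372 and 0.00796 by the same edgeR quasi-likelihood test. Whether identifier numbers follow position in the genome is not given in the sources used here.

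ARZ_8230_T1 and ARZ_3976_T1 reached levels of 289 CPM or more in each HMF library. ARZ_8230_T1 was at 29.8 and 21.4 CPM in the control, 517 and 643 CPM with HMF, and 722 and 786 CPM with furfural. ARZ_3976_T1 was at 38.7 and 22.9 CPM in the control, 289 and 411 CPM with HMF, and 485 and 520.0 CPM with furfural. Both genes were high in all 4 furan-treated libraries, and the treated and control libraries did not overlap. The log2 fold changes with HMF were 4.50 ± 0.18 and 3.50 ± 0.22. The identifiers placed 2 numbers before them, ARZ_8228_T1 and ARZ_3974_T1, were higher by smaller amounts, 0.54 ± 0.13 and 0.62 ± 0.13 on the log2 scale. The other tested identifiers within 2 numbers of either gene were not called.

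ARZ_12368_T1 and ARZ_14699_T1 started near 5 to 6 CPM. The first was at 5.58 and 4.64 CPM in the control and 108 and 105 CPM with HMF, and the second at 6.48 and 6.21 CPM in the control and 64.0 and 87.0 CPM with HMF. Their log2 fold changes were 4.38 ± 0.16 and 3.57 ± 0.17. ARZ_12368_T1 had the smallest adjusted p of the comparison's named genes (2.20e-14, edgeR quasi-likelihood), with close replicates in both groups. ARZ_12306_T1 went from 11.5 and 9.88 to 129 and 165 CPM, and ARZ_4549_T1 from 1.59 and 0.824 to 13.9 and 21.3 CPM. These 2 genes rose by nearly the same factor, 3.78 ± 0.17 and 3.84 ± 0.31 on the log2 scale, from different starting levels. The next numbers, ARZ_12307_T1 and ARZ_4550_T1, were higher by 0.60 ± 0.13 and 0.50 ± 0.13.

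Of the other rises, ARZ_18349_T1 went from 8.20 and 5.54 CPM to 83.1 and 99.97 CPM (log2 fold change 3.73 ± 0.18). ARZ_9955_T1 went from 15.2 and 14.9 CPM to 203 and 194 CPM (3.72 ± 0.15), and ARZ_11749_T1 from 14.1 and 14 CPM to 129 and 148 CPM (3.30 ± 0.15). In all 3 genes the groups lay far apart, and in ARZ_9955_T1 and ARZ_11749_T1 the replicates of each group lay close together. The log2 fold change of ARZ_18349_T1 was 4.04 without control replicate 1 and 3.47 without control replicate 2. ARZ_18348_T1, the number before ARZ_18349_T1, was lower with HMF (−0.84 ± 0.25), as was ARZ_9953_T1, 2 numbers before ARZ_9955_T1 (−0.54 ± 0.15). Most tested identifiers within 2 numbers of the 12 rises were not called. ARZ_11755_T1 had the least even pair of HMF libraries among the 12, at 27.0 and 14.8 CPM against 1.17 and 1.497 CPM in the control (3.97 ± 0.33). Adjusted p-values of the 12 rises ran from 2.20e-14 to 1.70e-08 (edgeR quasi-likelihood), and all 12 passed in each alternative fit, including those without 1 library.

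**Figure D2:**
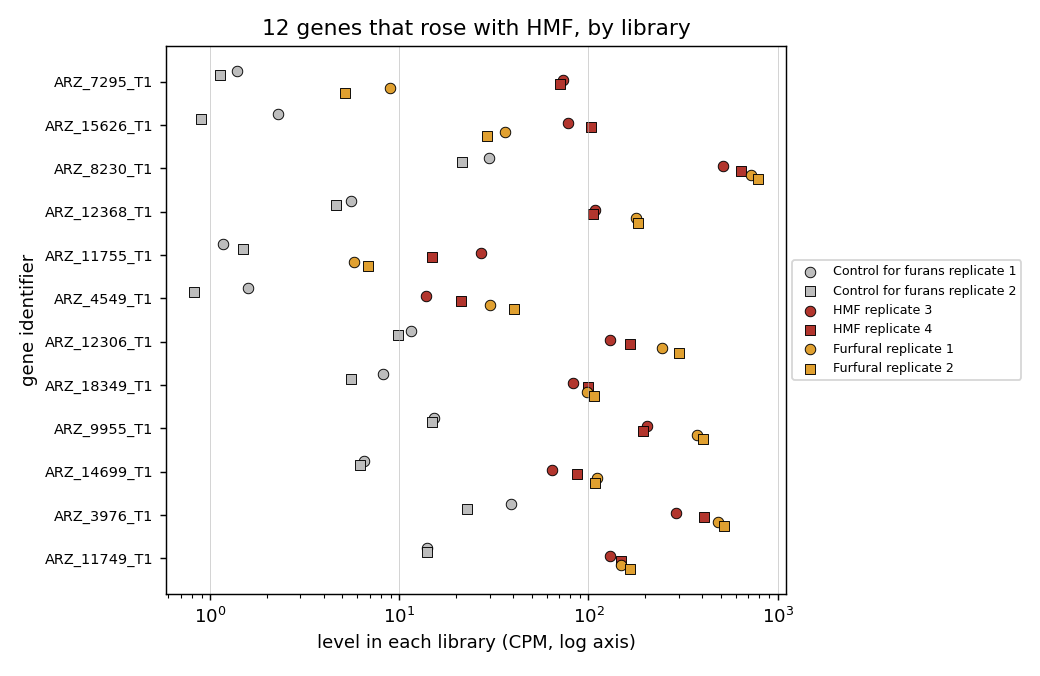
Level of the 12 named rises (y axis, by identifier) in each library of the furan experiment (x axis, CPM on a log axis). Grey points are control, red HMF and yellow furfural, with 1 symbol per library. In each gene both HMF libraries lie to the right of both control libraries, and for ARZ_7295_T1, ARZ_15626_T1 and ARZ_11755_T1 they also lie to the right of both furfural libraries.

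HMF and furfural were compared directly in the same fit, at equal g/L and unequal molar dose. Of all genes tested 5607 (34.2%) differed between the furans, 2788 (17.0%) higher and 2819 (17.2%) lower with HMF. Among the 12 named rises, 3 were higher with HMF, 6 lower, and 3 did not pass the test. ARZ_7295_T1 was higher with HMF than with furfural by log2 3.36 ± 0.21, ARZ_11755_T1 by 1.73 ± 0.27 and ARZ_15626_T1 by 1.48 ± 0.19. ARZ_4549_T1 (−1.004 ± 0.22), ARZ_9955_T1 (−0.97 ± 0.13), ARZ_12306_T1 (−0.90 ± 0.15), ARZ_12368_T1 (−0.75 ± 0.13), ARZ_14699_T1 (−0.54 ± 0.14) and ARZ_3976_T1 (−0.52 ± 0.20) were lower with HMF. The adjusted p of these 9 differences ran from 7.15e-11 to 0.0499 (edgeR quasi-likelihood), the highest that of ARZ_3976_T1. For ARZ_18349_T1 the difference was −0.16 with a 95% interval of −0.46 to 0.14, for ARZ_11749_T1 −0.19 (−0.45 to 0.08) and for ARZ_8230_T1 −0.38 (−0.70 to −0.06), which missed the threshold after adjustment (adjusted p = 0.0618, edgeR quasi-likelihood).

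Over the 118 rises the direct comparison gave 31 genes higher with HMF than with furfural, 52 lower and 35 that did not pass. Of all genes tested, 17.0% were higher and 17.2% lower with HMF than with furfural. The selection of these genes and the direct comparison use the same HMF libraries, so the 31 are given as a description. ARZ_12937_T1 and ARZ_18182_T1, chosen after their values were seen, were low in all control and furfural libraries. ARZ_12937_T1 was at 3.03 and 2.47 CPM in the control, 26.5 and 23.5 CPM with HMF, and 5.23 and 5.13 CPM with furfural. ARZ_18182_T1 was at 4.07 and 1.87 CPM in the control, 20.3 and 21.4 CPM with HMF, and 4.52 and 4.44 CPM with furfural. Their log2 fold changes over the control were 3.18 ± 0.25 and 2.80 ± 0.28, and they exceeded the furfural level by 2.27 ± 0.23 and 2.22 ± 0.28. Furfural also raised ARZ_12937_T1 over the control (0.91 ± 0.27, adjusted p = 0.0110, edgeR quasi-likelihood). For ARZ_18182_T1 its difference from the control did not pass (0.58 ± 0.31, adjusted p = 0.159, same test). The preceding numbers were also called. ARZ_12936_T1 was higher with HMF than in the control by 1.46 ± 0.27 and ARZ_18181_T1 by 2.11 ± 0.25. Furfural raised both as well, by 0.79 ± 0.28 and 0.98 ± 0.26 (adjusted p = 0.0320 and 0.00430, edgeR quasi-likelihood). None of the other tested identifiers within 4 numbers of ARZ_12937_T1 or ARZ_18182_T1 was called with HMF (edgeR quasi-likelihood adjusted p from 0.0502 at ARZ_18184_T1 to 0.927 at ARZ_12933_T1).

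The next 3 genes, also named after their values were seen, were raised by HMF and stood lower with furfural than in the control. The fall with furfural passed the test only for ARZ_16609_T1 (adjusted p = 2.27e-05, against 0.107 for ARZ_12619_T1 and 0.0637 for ARZ_5312_T1, edgeR quasi-likelihood). ARZ_12619_T1 was at 4.76 and 5.61 CPM in the control, 19.6 and 18.7 CPM with HMF, and 3.19 and 3.75 CPM with furfural. ARZ_16609_T1 was at 14.5 and 14.3 CPM in the control, 29.3 and 28.3 CPM with HMF, and 5.32 and 5.90 CPM with furfural. In ARZ_5312_T1 the control libraries were at 12.3 and 12.4 CPM, the HMF libraries at 36.1 and 35.3 CPM and the furfural libraries at 10.3 and 7.20 CPM. In each of the 3 the HMF libraries were the 2 highest of the 6. HMF exceeded furfural by log2 2.46 ± 0.25, 2.36 ± 0.20 and 2.04 ± 0.20, at adjusted p-values of 1.40e-07, 1.15e-08 and 7.63e-08 (edgeR quasi-likelihood).

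The largest falls under the rule for named genes came from 2 short runs of identifier numbers. ARZ_10438_T1 was at 59.4 and 114 CPM in control replicates 1 and 2 and at 8.08 and 8.04 CPM with HMF. ARZ_10440_T1 was at 28.3 and 44.3 CPM in the control and 4.29 and 3.38 CPM with HMF. ARZ_10441_T1, the next number, was at 10.7 and 12.95 CPM in the control and 4.94 and 4.13 CPM with HMF. All 3 genes were higher in control replicate 2 than in control replicate 1, and both HMF libraries lay below both. Their log2 fold changes were −3.43 ± 0.40, −3.23 ± 0.26 and −1.38 ± 0.27. The fall of ARZ_10438_T1 had an edgeR quasi-likelihood adjusted p of 0.00225, which was 0.209 without HMF replicate 3 and 0.121 without HMF replicate 4, while its log2 fold change stayed at −3.43 and −3.42.

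The second run held the other 2 of the 4 largest named falls. ARZ_16710_T1 was at 153 and 235 CPM in the control and 36.3 and 25.3 CPM with HMF, and ARZ_16712_T1 at 100.5 and 107 CPM in the control and 11.02 and 16.3 CPM with HMF. ARZ_16713_T1 was at 15.5 and 20.8 CPM in the control and 6.94 and 7.97 CPM with HMF. The HMF and control libraries of these genes did not overlap, and the log2 fold changes were −2.65 ± 0.20, −2.93 ± 0.17 and −1.28 ± 0.23. Adjusted p-values (edgeR quasi-likelihood) were 6.27e-08, 3.70e-11 and 0.000920. Furfural lowered 3 of the 4 named genes of these runs further than HMF did. HMF exceeded furfural by log2 1.98 ± 0.22 at ARZ_16712_T1, 1.96 ± 0.38 at ARZ_10440_T1 and 1.40 ± 0.21 at ARZ_16710_T1, with adjusted p-values of 4.18e-07, 0.000393 and 7.56e-05 (edgeR quasi-likelihood). At ARZ_10438_T1 the difference was 0.90, with a 95% interval of −0.21 to 2.02. ARZ_16713_T1 went the other way, lower with HMF than with furfural by −0.61 ± 0.23 (adjusted p = 0.0468, edgeR quasi-likelihood).

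The other 8 named falls were smaller, from −1.45 to −1.81 on the log2 scale. ARZ_5735_T1 was at 116 and 66.6 CPM in the control and 22.9 and 29.4 CPM with HMF, and ARZ_15377_T1 at 128 and 77.6 CPM in the control and 36.4 and 30.1 CPM with HMF. Both were higher in control replicate 1 than in control replicate 2, the reverse of the 2 runs above. Their log2 fold changes were −1.81 ± 0.23 and −1.63 ± 0.19. The direct difference between the furans was −0.05 at ARZ_5735_T1 (95% interval −0.56 to 0.46) and −0.01 at ARZ_15377_T1 (−0.41 to 0.38). ARZ_4508_T1 fell from 23.0 and 29.0 to 7.66 and 8.19 CPM, and ARZ_4506_T1 from 13.9 and 15.0 to 4.22 and 6.09 CPM, so another pair of close numbers fell, by 1.71 ± 0.21 and 1.49 ± 0.26 on the log2 scale.

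ARZ_6114_T1 fell from 56.2 and 34.9 to 12.2 and 19.0 CPM. It was the only one of the 12 falls that was lower with HMF than with furfural in the direct test (log2 difference −0.67 ± 0.23, edgeR quasi-likelihood adjusted p = 0.0327). ARZ_13499_T1 fell from 21.1 and 33.5 to 8.73 and 10.6 CPM, and ARZ_5840_T1 from 12.7 and 8.38 to 2.79 and 4.28 CPM. ARZ_17270_T1 was at 81.6 and 41.6 CPM in the control and 19.7 and 25.6 CPM with HMF. Of the 12 falls, 8 passed in each of the 4 fits that left out 1 HMF or control library. The other 4 were ARZ_10438_T1, ARZ_5735_T1 (adjusted p = 0.104 without HMF replicate 3), ARZ_5840_T1 (0.101 without control replicate 1) and ARZ_17270_T1 (0.216 and 0.0721 without HMF replicate 3 and 4, all edgeR quasi-likelihood). The log2 fold change of ARZ_17270_T1 was −1.27 and −1.65 in these fits, and it moved to −0.88 without control replicate 1 and −1.86 without control replicate 2.

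**Figure D3:**
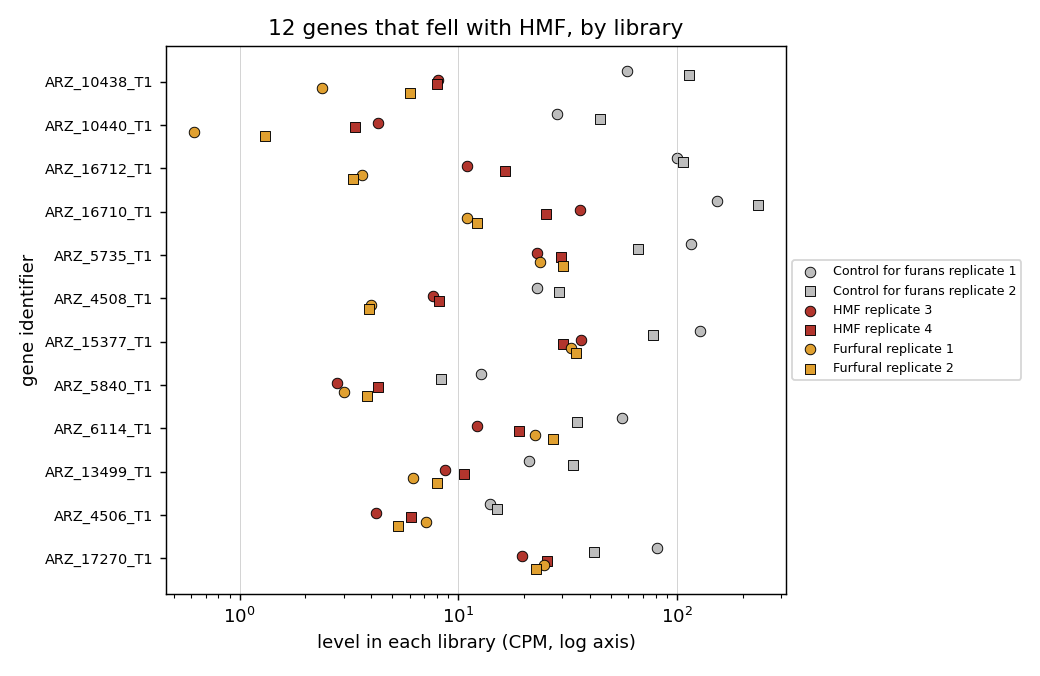
Level of the 12 named falls (y axis, by identifier) in each library of the furan experiment (x axis, CPM on a log axis), with colours and symbols as for the rises. Both HMF libraries lie to the left of both control libraries in each gene, and the control libraries of ARZ_10438_T1 (59.4 and 114 CPM) stand farther apart than its HMF libraries (8.08 and 8.04 CPM).

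The 100 genes with the highest CPM were called about as often as genes at large, and less often than their own level class. Of these 100, ranked by mean over the 6 furan libraries with the lowest at 727 CPM, 8 passed the test, 6 higher and 2 lower. Over all genes 8.45% were called, and in the highest of the 4 level classes, from 61.2 CPM, 15%. Their log2 fold changes all lay between −0.75 and 1.04. The top of that range was ARZ_14892_T1, at 266 and 227 CPM in the control and 583 and 431 CPM with HMF, whose mean over the 6 libraries was high because furfural brought it to 2125 and 2250 CPM. Among called genes, ARZ_6463_T1 had the highest mean over the 6 furan libraries, and ARZ_9577_T1 was above it in the control. ARZ_6463_T1 was at 925 and 1110.0 CPM in the control and 1603 and 1414 CPM with HMF, a log2 fold change of 0.57 ± 0.15. ARZ_9577_T1 was at 1857 and 2053 CPM in the control and 1489 and 1354 CPM with HMF, a log2 fold change of −0.46 ± 0.14. ARZ_2114_T1 was higher with HMF by 0.87 ± 0.17 and ARZ_10336_T1 by 0.63 ± 0.17. The calls of ARZ_6463_T1, ARZ_9577_T1, ARZ_2114_T1 and ARZ_10336_T1 depended on single libraries, while ARZ_14892_T1 passed in every fit without 1 library. ARZ_6463_T1, ARZ_9577_T1 and ARZ_10336_T1 also lost their calls in the fit of the 2 groups alone, in the joint fit of 20 libraries and in the test against a 1.2-fold change, and ARZ_9577_T1 with median-of-ratios scaling. Without control replicate 1 the edgeR quasi-likelihood adjusted p was 0.201 for ARZ_6463_T1, 0.0826 for ARZ_9577_T1, 0.0678 for ARZ_2114_T1 and 0.345 for ARZ_10336_T1, whose log2 fold change was then 0.34. ARZ_9577_T1 also lost its call without any other single library, with log2 fold changes of −0.39 to −0.53 in these fits.

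At the other end, 6 called rises and 6 called falls of at least 8-fold stayed below 10 CPM in both groups. The clearest of them by reads, named after its values were seen, was ARZ_17766_T1, with 1 and 1 reads in the control, 36 and 49 reads with HMF, and 1 and 6 reads with furfural. ARZ_18384_T1 went the other way, with 21 and 60 reads in the control and 3 and 1 reads with HMF. At such counts the fitted fold depends on the prior count used in the fit, so no fold is given.

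The genes that HMF changed at least 2-fold were then followed in the other experiments, whose controls are other libraries than the furan control. Of the 163 raised genes, 162 were tested with the phenolic aldehydes. Vanillin raised 74 of them (45.7%, against 8.83% of all genes tested) and lowered 3 (1.85%, against 10.4%). Syringaldehyde raised 61 (37.7%, against 10.9%) and lowered 4 (2.47%, against 13.2%). With 4-hydroxybenzaldehyde 9 rose (5.56%, against 3.11%) and 5 fell (3.09%, against 5.0%). The share that rose was 9.88% by DESeq2, against 4.69% of all genes, and 11.8% among genes with at least 10 CPM in 2 libraries, against 5.52%. The median log2 fold change of the raised genes was 0.71 with vanillin, 0.49 with syringaldehyde and 0.13 with 4-hydroxybenzaldehyde, against 0.00, 0.01 and 0.01 over all genes.

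Under the weak acids the same 163 genes went more often down than up. Of 158 tested, acetic acid lowered 47 (29.7%, against 18.3% of all genes) and raised 13 (8.23%, against 19.7%). Formic acid lowered 59 (37.3%, against 18.8%) and raised 19 (12%, against 20.9%). Median log2 fold changes were −0.22 and −0.43, against −0.01 and −0.01 over all genes.

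Of the 104 genes lowered by HMF, 102 were tested with the phenolic aldehydes. Syringaldehyde lowered 31 of 102 (30.4%, against 13.2%), 4-hydroxybenzaldehyde 23 (22.5%, against 5.0%) and vanillin 18 (17.6%, against 10.4%). Vanillin also raised 14 (13.7%, against 8.83%), syringaldehyde 9 (8.82%, against 10.9%) and 4-hydroxybenzaldehyde 1 (0.980%, against 3.11%). Acetic acid lowered 30 of 101 (29.7%, against 18.3%) and raised 18 (17.8%, against 19.7%), and formic acid lowered 19 (18.8%, the share of all genes) and raised 24 (23.8%, against 20.9%). Of these 104 genes, 57 had levels too low for the rule on named genes. Of the 33 that passed in each of the 4 fits without 1 library, syringaldehyde lowered 18 (54.5%), 4-hydroxybenzaldehyde 16 (48.5%), acetic acid 14 (42.4%), vanillin 11 (33.3%) and formic acid 9 (27.3%). Formic acid raised 12 of the 33 (36.4%, against 20.9% of all genes), vanillin 5 (15.2%, against 8.83%) and acetic acid 4 (12.1%, against 19.7%). Syringaldehyde and 4-hydroxybenzaldehyde raised 1 each (3.03%, against 10.9% and 3.11%).

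**Figure D4:**
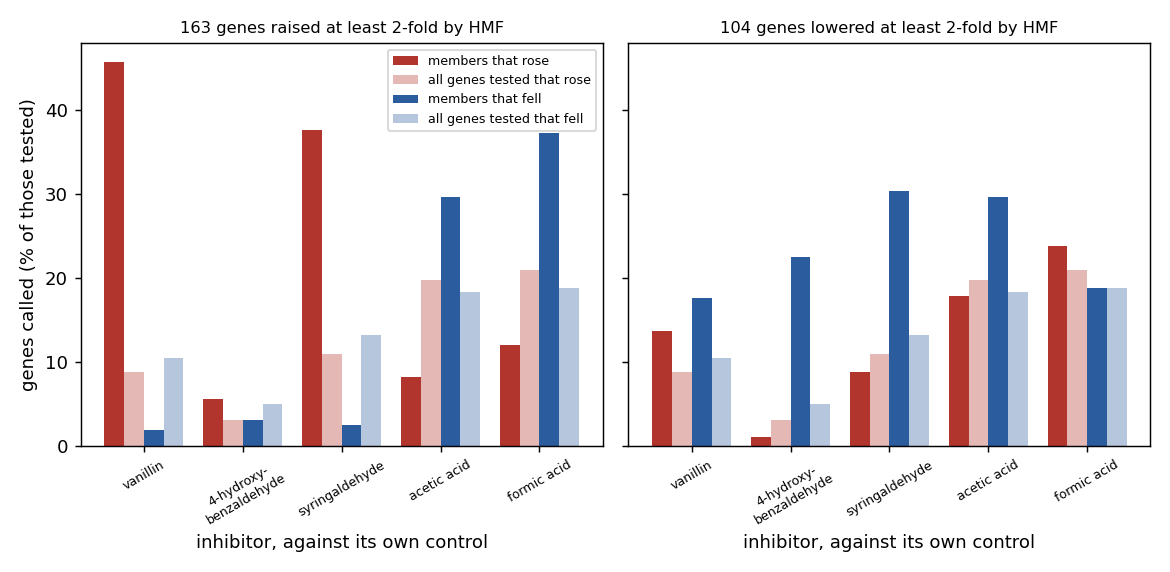
Share of genes called higher (red) or lower (blue) with each of 5 other inhibitors (x axis), in percent of those tested (y axis), for the 163 genes raised and the 104 genes lowered at least 2-fold by HMF; pale bars give the share over all genes tested in that comparison. The raised genes stand at 45.7% higher with vanillin against 8.83% of all genes, and at 37.3% lower with formic acid against 18.8%.

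The 12 named rises were all higher with vanillin than in its control (8.83% of all genes), with a median log2 fold change of 3.09 and a range from 2.61 to 6.80. ARZ_11755_T1 held the top of that range, at 179 and 166 CPM with vanillin, 83.2 and 80.9 CPM with syringaldehyde, and 1.34 and 1.71 CPM in the phenolic aldehyde control. Syringaldehyde raised 8 of the 12 (10.9% of all genes) and 4-hydroxybenzaldehyde 2 (3.11%), ARZ_12306_T1 (log2 fold change 1.78 ± 0.33) and ARZ_12368_T1 (1.09 ± 0.28). With 4-hydroxybenzaldehyde the replicates were uneven, and ARZ_8230_T1, for example, was at 22.8 and 50.7 CPM against 25.0 and 17.4 CPM in the control. Acetic acid lowered 3 of the 12 (18.3% of all genes), ARZ_3976_T1 (−1.47 ± 0.21), ARZ_8230_T1 (−1.38 ± 0.32) and ARZ_11749_T1 (−0.75 ± 0.25). Formic acid lowered 7 (18.8% of all genes) and raised none of the 12, with the largest fall at ARZ_12368_T1 (2.95 and 2.75 CPM against 11.9 and 15.2 CPM in the weak acid control, −2.26 ± 0.23). Both ARZ_12937_T1 and ARZ_18182_T1 were lower with formic acid (−3.37 ± 0.28 and −4.11 ± 0.33) and acetic acid (−1.55 ± 0.24 and −2.65 ± 0.28), and higher with vanillin (1.38 ± 0.36 and 1.85 ± 0.26).

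The runs around ARZ_10440_T1 and ARZ_16712_T1 had wide ranges in the other experiments. ARZ_16710_T1 fell to 5.67 and 5.62 CPM with vanillin, 7.10 and 5.48 CPM with syringaldehyde, and 143 and 142 CPM with 4-hydroxybenzaldehyde, against 386 and 289 CPM in the phenolic aldehyde control. With acetic acid it fell to 6.26 and 6.44 CPM against 235 and 317 CPM in the weak acid control, and with formic acid it rose to 539 and 422 CPM. Its log2 fold change was −1.23 ± 0.17 with 4-hydroxybenzaldehyde and −5.90 ± 0.21 with vanillin, beside −2.65 ± 0.20 with HMF. These values come from separate experiments at unlike doses and were not compared by a test.

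Several named falls went opposite ways under other inhibitors. ARZ_17270_T1 rose with vanillin to 474 and 517 CPM and with syringaldehyde to 513 and 381 CPM, against 49.0 and 28.4 CPM in their control. It fell with acetic acid to 23.7 and 15.9 CPM against 143 and 269.5 CPM. ARZ_5735_T1 and ARZ_15377_T1 fell with all 3 phenolic aldehydes (log2 fold changes from −3.23 to −0.83) and rose with acetic acid, by 1.17 ± 0.18 and 0.90 ± 0.18. ARZ_6114_T1 fell with 4-hydroxybenzaldehyde (−2.08 ± 0.35) and rose with formic acid (1.76 ± 0.20) and vanillin (1.06 ± 0.32). ARZ_4506_T1 passed the test in none of the 5 comparisons. Of the 12 named falls, syringaldehyde lowered 9 (13.2% of all genes) and raised 1 (10.9%), and 4-hydroxybenzaldehyde lowered 7 (5.0%) and raised none (3.11%). Vanillin lowered 6 (10.4%) and raised 2 (8.83%), and acetic acid lowered 6 (18.3%) and raised 2 (19.7%). Formic acid lowered 2, close to its share over all genes (18.8%), and raised 5 (20.9%).

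**Figure D5:**
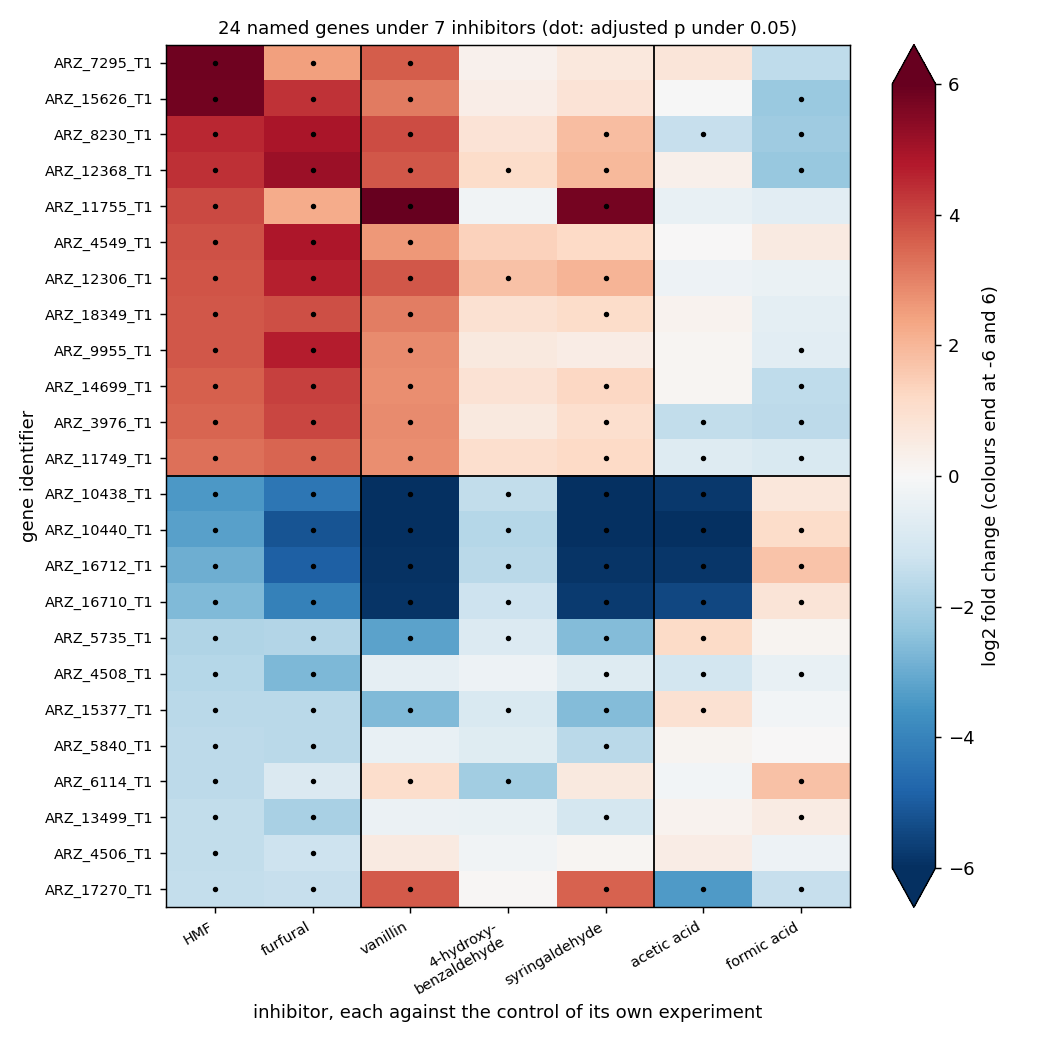
Log2 fold change of the 24 named genes (rows) under each of the 7 inhibitors (columns), each against the control of its own experiment, as colour from blue (lower) to red (higher); dots mark an edgeR quasi-likelihood adjusted p under 0.05, and HMF and furfural share their control libraries. The 12 rises are red with vanillin (2.61 to 6.80) and pale or blue with formic acid, and the first 4 falls are dark blue in 3 of the other experiments' 5 columns.

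Named genes were also compared with each other in the 14 libraries outside the furan experiment, which played no part in choosing them. For each named gene the identifier with the most similar profile among 16220 genes was found by Pearson's r of log2 CPM over those libraries, which share groups, depth and controls. In 15 of 24 cases that identifier was itself one of the 24, and in 18 it was called in the same direction with HMF. Over all genes 5.0% were called higher and 3.45% lower. Mutual pairs enter these counts from both ends, so the 24 cases are not separate trials and the shares over all genes are given for scale only. Of the 12 rises, 8 formed mutual pairs in this way, with ARZ_12368_T1 and ARZ_14699_T1 at r = 0.985, ARZ_8230_T1 and ARZ_3976_T1 at 0.979, ARZ_7295_T1 and ARZ_15626_T1 at 0.955, and ARZ_4549_T1 and ARZ_12306_T1 at 0.950. ARZ_18349_T1 was closest to ARZ_9955_T1, ARZ_9955_T1 to ARZ_17182_T1, which is not among the 24, and ARZ_11749_T1 to ARZ_8230_T1. Among the falls, ARZ_5735_T1 and ARZ_15377_T1 paired at 0.995. ARZ_17270_T1 went with ARZ_16703_T1 at 0.994, which fell with HMF from 4.92 to 1.62 CPM on average (log2 fold change −1.61 ± 0.42). For 6 of the 24 the closest profile was not called with HMF. Among the falls these were the partners of ARZ_4508_T1, ARZ_5840_T1, ARZ_6114_T1, ARZ_13499_T1 and ARZ_4506_T1, with log2 fold changes of −0.34 to 0.31, of which 3 were above 0. Among the rises it was that of ARZ_11755_T1, which was closest to ARZ_17652_T1 at 0.976, a gene with a log2 fold change of 0.28 with HMF (edgeR quasi-likelihood adjusted p = 0.311).

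In some of these pairs the adjoining numbers were also similar, a pattern noticed after the values were seen. In others they were not. Steps of 1 to 4 numbers were taken beside 10 pairs chosen after their values were seen. The pairs included ARZ_10440_T1 with ARZ_16712_T1 and ARZ_12937_T1 with ARZ_18182_T1. Over 60 such steps r ran from −0.721 to 0.986 with a median of 0.453. No r of unrelated identifiers is given beside it, so whether this median is high is not known. Taken in order of number, ARZ_10438_T1, ARZ_10440_T1 and ARZ_10441_T1 had r = 0.986, 0.993 and 0.960 with ARZ_16710_T1, ARZ_16712_T1 and ARZ_16713_T1 over the 14 libraries. This order was not that of the closest profiles, since ARZ_10440_T1 was closest to ARZ_16710_T1 (0.997) and ARZ_16712_T1 to its own neighbour ARZ_16713_T1 (0.995). ARZ_4549_T1, ARZ_4550_T1 and ARZ_4551_T1 had r = 0.950, 0.924 and 0.935 with ARZ_12306_T1, ARZ_12307_T1 and ARZ_12308_T1. HMF gave matching log2 fold changes along the second run, 3.84 and 3.78, then 0.50 and 0.60, then −0.12 and −0.03. ARZ_4546_T1 and ARZ_12303_T1, a few numbers before, had r = −0.163, and ARZ_10437_T1 and ARZ_16709_T1, just before the first run, 0.190. Around ARZ_17270_T1 the partners ran in the opposite order of numbers, with r from 0.839 to 0.994 over the steps from ARZ_17268_T1 to ARZ_17271_T1. Whether such pairs are copies of 1 gene was not tested, and how reads shared by near-identical copies were counted is not stated. The split of reads within a pair is therefore uncertain.

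Over all changed genes, the identifiers with close numbers were called about as often as genes at large. Of 512 tested identifiers within 2 numbers of a gene raised at least 2-fold, 34 (6.64%) were called higher with HMF, against 5.0% of all genes. Of 316 within 2 numbers of a lowered gene, 12 (3.80%) were called lower, against 3.45%.

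The count of called genes depended on single libraries more than the named genes did. It was 457 without control replicate 1, 837 without control replicate 2, 753 without HMF replicate 3 and 2250 without HMF replicate 4. In all, 304 genes were called in the same direction in each of these 4 fits, 220 higher and 84 lower. They held 114 of the 163 genes raised and 33 of the 104 genes lowered at least 2-fold, and 20 of the 24 named genes, with all 12 rises among them.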

How the data were processed

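The deposited values were raw read counts per identifier, in 3 tables, each with its own control. Per the labels' protocols, RNA was extracted with Trizol and sequencing libraries were prepared with a kit for the Ion Proton. Aligner, counter and gene models are not stated there. The submitters' processing notes name Sscrofa 10.2, the build of a pig genome, at odds with the fungal ARZ identifiers. Groups came from the treatment label and replicate numbers from the sample titles.

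All groups of a table entered 1 model in edgeR 4.0.16 (R 4.3.3) after filterByExpr and TMM scaling, with robust two-sided quasi-likelihood F-tests. p-values were adjusted by Benjamini-Hochberg over all genes tested, 16398 for the furans. The 2432 identifiers left out held 0.0407% of the furan counts. CPM are relative to scaled library totals. Standard errors were taken from the F statistics. Profiles over the 14 other libraries used log2(CPM + 0.5). Molar doses used rdkit 2024.09.2, and figures matplotlib 3.10.9.

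Members, the rule for named genes (12 rises, 12 falls and the 5 called genes with the highest mean CPM) with their number neighbours and closest profiles, and the alternatives were chosen with earlier results of these data known. Alternatives included DESeq2 1.42.0 and leaving out each library. Intervals are 95% intervals of the fit.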

Additional observations from a re-analysis of the deposited data

How the results depend on the processing

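The 12 named rises passed with the same direction in all 14 alternatives, and no named gene reversed. For HMF against control, the 1385 called genes became 884 with only the HMF and control libraries in the fit, 897 in a joint fit of all 20 libraries and 463 when tested against a 1.2-fold change. Leaving out 1 library of the 6 gave 457 to 2250. For HMF against furfural, leaving out 1 library gave 3029 to 5579 against 5607, the lowest without furfural replicate 2 and 3724 without furfural replicate 1. In these fits the lone library left in a group borrows its spread from the other groups.

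Shares of HMF-changed genes called with other inhibitors moved by over 1.5 times in these cases. With at least 10 CPM in 2 libraries, lowered genes fell in 28.0% with vanillin, 44.0% with 4-hydroxybenzaldehyde and 48.0% with syringaldehyde (12.7%, 7.84% and 16.3% of all genes), and raised genes rose in 11.8% with 4-hydroxybenzaldehyde and 12.6% with acetic acid (5.52% and 24% of all genes). With DESeq2, raised genes rose in 9.88% with 4-hydroxybenzaldehyde (4.69% of all genes). With only lowered genes called in each fit without 1 library, 33.3% fell with vanillin, 48.5% with 4-hydroxybenzaldehyde and 54.5% with syringaldehyde. Of all genes, 10.4%, 5.0% and 13.2% fell with these 3 inhibitors. Within 1.5 times, the 10 CPM filter took raised genes that rose from 45.7% to 64.5% with vanillin and from 37.7% to 50.9% with syringaldehyde. It took lowered genes that fell with acetic acid from 29.7% to 43.1%. The matching shares of all genes also went up, from 8.83% to 13%, from 10.9% to 15.3% and from 18.3% to 23.8%. The cause of these shifts was not tested. The sets under the 10 CPM filter and the sets called in each fit without 1 library also held fewer genes. No paired analysis was possible because the HMF libraries are numbered 3 and 4 and the control libraries 1 and 2. Genes under about 6 CPM were called less often, so changes there may have been missed at this depth.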
